A study of Mus musculus with 16 samples.

Results

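The genes described here are encoded in the nucleus and specify the subunits, and some assembly factors, of the mitochondrial respiratory chain and of ATP synthase. They were chosen by symbol, with a minimum count and with pseudogene symbols (-ps) left out. A gene entered when its symbol began with Ndufa, Ndufb, Ndufc, Ndufs, Ndufv, Uqcr, Sdha to Sdhd, Cox4 to Cox8 or Atp5 and when it had at least 10 counts in at least 2 of the 16 libraries. This gave 94 genes of the 26761 symbols in the series. The symbols Cox7b2, Cox8b and Cox8c matched the names but not the counts, with 52, 5 and 2 counts over all libraries. Each of the 94 genes also passed the filter on low counts used for the tests.

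Complexes I, II and III collect electrons from NADH, succinate and reduced coenzyme Q, and complex IV (cytochrome c oxidase) passes them to oxygen. Complexes I, III and IV pump protons as they do so, and ATP synthase uses the proton gradient to make ATP. Most subunits are nuclear genes whose products are imported into the mitochondrion, while a small hydrophobic core is encoded in mitochondrial DNA. Complex II is wholly nuclear and also serves the tricarboxylic acid cycle. Several subunits of complex IV come in paralogs that are restricted to certain tissues or rise when oxygen is low.

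Polyadenylated RNA was measured in mouse embryos, obtained by natural mating, with 2 libraries in each of 8 groups. At E7.5 the groups were extraembryonic visceral endoderm (exVE) and embryonic visceral endoderm (emVE), both labelled as cells. Visceral endoderm is the absorptive epithelium around the early embryo, part of which later joins the gut. At E8.75, the stage with 13 somites, gut tubes were taken whole as bulk tissue, whole as dissociated cells, or as an anterior, an anterior-midgut, a midgut-posterior and a posterior section. The protocol describes gut tubes freed with pancreatin and trypsin in the cold, after removal of heads and membranes, and cells released from gut tubes and from E7.5 endoderm with warm Accutase and trypsin. It names Afp-GFP transgenic embryos for the dissociated gut tubes and does not say which embryos gave the tissue pieces. No label says whether 2 libraries of a group came from separate embryos or pools, so p-values measure only the spread between these samples, which may be technical.

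Totals ran from 57061536 to 84509973 counts per library. Levels are given as CPM, the usual scaling of counts to library size, after each library's size was multiplied by a TMM factor, computed to centre most genes between libraries. Those factors were 0.787 and 0.775 in exVE and lay between 0.997 and 1.098 elsewhere, so exVE levels are higher relative to the other groups than on library totals alone. Dissociated replicate 2 stood apart from its partner: 50 of the 94 genes were more than 1.5-fold higher in it than in dissociated replicate 1, and none was as far below. In every other group at most 4 of the 94 genes differed that much, both directions counted. For this reason counts are also given from a fit without the dissociated group. The 20 listed markers of visceral endoderm summed to 51500 and 55900 CPM in exVE and to 20200 and 21900 CPM in emVE, against 370 to 8930 CPM in gut tube libraries, so the E7.5 libraries carry the markers of their labelled tissue. The emVE libraries also carried 735 and 727 CPM from the 8 notochord and node markers, compared with 22.9 and 13.9 CPM in exVE. The exVE libraries carried 903 and 911 CPM from the 12 extraembryonic ectoderm and trophoblast markers, compared with 398 and 433 CPM in emVE. Whether such cells have a part in the values of the 94 genes was not tested.

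The 94 genes took between 0.963% and 1.61% of each library's counts. Compared per kilobase of transcript, ATP synthase and complex IV were the most abundant classes. The median over 16 libraries was 265 CPM per kb for the 15 ATP synthase genes and 257 for 12 broadly expressed complex IV genes. It was 192 for 8 genes of complex III, 97.5 for the 4 subunits of complex II, and 72.8 and 92.6 for the 7 core and 29 accessory subunits of complex I. Assembly factors were scarcer, at 14.7 CPM per kb for complex I and 11.7 for complex II. Atp5b, the catalytic beta subunit of ATP synthase, had the highest level per length, 819 CPM per kb, followed by Atp5g3, which encodes the c subunit of the proton-driven rotor, at 546. The lowest was Cox6a2, the heart and muscle form of subunit VIa, at 0.368 CPM per kb. The coding sequences of 24 genes had a copy elsewhere in the annotated transcriptome, at 95% identity or more over 50% or more of their length. For these, of which Atp5l had the most copies (8), counts may be split between copies, so their levels are uncertain.

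**Figure D1:**
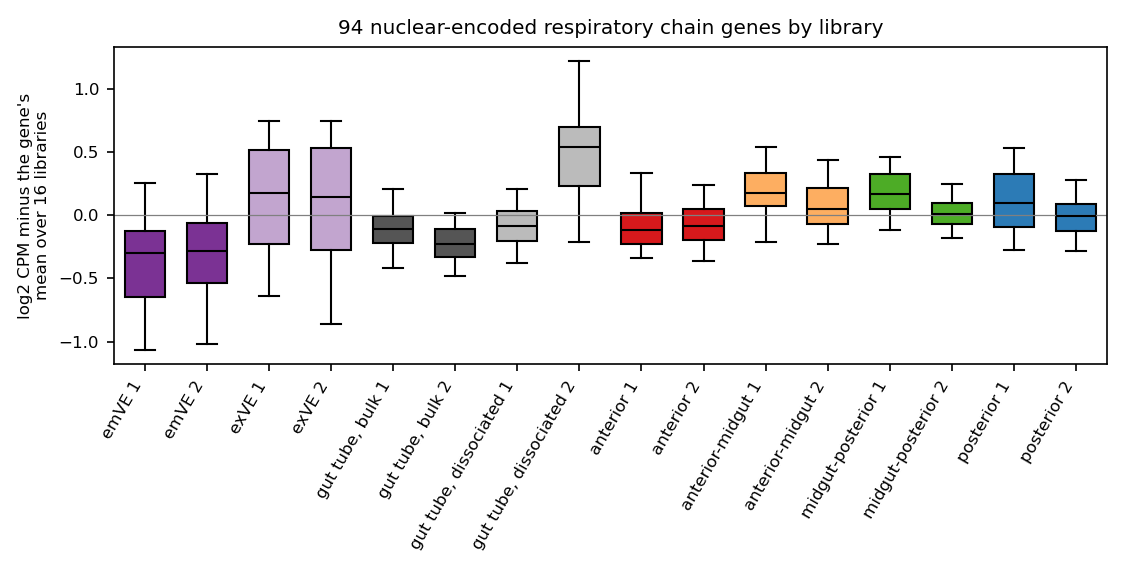
Levels of the 94 genes in each library: the y axis is log2 CPM minus the gene's own mean over the 16 libraries, the line in each box is the median, the box spans the middle of the genes and the whiskers the 5th to 95th percentile. Both emVE libraries lie below both exVE libraries, both anterior libraries lie below the other sections, and dissociated replicate 2 lies above its partner.

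Across all 8 groups, 78 of the 94 genes (83.0%) passed the test for any difference, against 71.4% of the 17313 genes tested (edgeR quasi-likelihood F-test, Benjamini-Hochberg adjusted p under 0.05, as throughout). A fit without the dissociated group gave 89, against 77.9% of all genes in that fit. The lowest of the 8 group means, on the log2 scale, was in emVE for 49 of the 94 genes, compared with 15% of all genes tested. The highest was in exVE for 41 genes (43.6%, against 29.8% of all genes) and in dissociated cells for 25 (26.6%, against 12.4%). The median level over the 94 genes was 5.99 and 6.00 log2 CPM in the emVE libraries and 6.53 and 6.45 in the exVE libraries. In bulk gut tube it was 6.31 and 6.19.

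The comparison of exVE with emVE asked how the respiratory chain differs between the 2 parts of the visceral endoderm. In exVE, 47 of the 94 genes (50%) were higher and 3 were lower, while 20.1% of all genes tested were higher and 23.8% were lower. The median log2 difference was 0.50, compared with 0.00 over all genes, and 86 of the 94 values were above 0. Higher genes came from every complex. They were 6 of 7 core subunits of complex I, 12 of 29 accessory subunits, 4 of 4 complex II subunits, 7 of 8 complex III genes, 7 of 12 broadly expressed complex IV genes and 7 of 15 ATP synthase genes. Among assembly factors, 3 of 8 for complex I and 1 of 4 for complex II were higher. On library totals alone, with no TMM factor, the median of all genes moved to -0.36 and that of the 94 genes to 0.12. There 14 of the 94 were called higher and 5 lower. In the same fit 41.7% of all genes were called in either direction, a larger share than of the set. Relative to all genes, the 94 genes thus stood 0.48 higher on that scale and 0.50 higher with TMM. The count called, 50 in the main fit, fell with any exVE or emVE library left out, as did the share of all genes called. The median of the 94 genes was 0.45 without exVE replicate 1 and 0.52 without exVE replicate 2. It was 0.48 without emVE replicate 1 and 0.50 without emVE replicate 2. In the fit without the dissociated group the count was 69, and 52.1% of all genes were called. As each library pools many cells, more cells of a kind and more RNA per cell cannot be told apart in any comparison here.

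Promoters were described for the set as a whole. Genes called higher in exVE were not set against the other genes of the set, so a link of these letters to the exVE difference was not tested. RefSeq windows on GRCm38.p6, 250 bases before to 50 after the start, were matched for 76 of the 94 genes. The letters searched on both strands were GCGCATGC or GCGCACGC for nuclear respiratory factor 1 (NRF1), CCGGAAG for ETS factors, and AAGATGGC for YY1. The NRF1 letters were in 17 of the 76 windows (22.4%), against 5.52% of 27025 windows of all genes. The ETS letters were in 26.3% against 9.12%, and the YY1 letters in 11.8% against 2.88%. Windows of the set were also richer in G and C, with a median of 58.7% against 52.7%. A match describes the letters only and is not a site. Sequences are shown for 4 genes on which the comparisons turn, cut to bases before the start that lie in no annotated exon, 5′ to 3′ on the gene's strand, with the searched letters in capitals. Sdhd (chr9:50603850-50603909, minus strand) holds an ETS match on the reverse strand, and its whole window also holds an NRF1 match. Ndufaf4 (chr4:24897833-24898082, plus strand) holds a palindromic NRF1 match, read once on each strand, and its whole window holds a further NRF1 match. Uqcrfs1 (chr13:30545363-30545566, minus strand) and Ndufs8 (chr19:3912775-3913024, minus strand) hold none of the letters in the stretch shown, although the whole window of Ndufs8 holds an ETS match after the start.
Sdhd: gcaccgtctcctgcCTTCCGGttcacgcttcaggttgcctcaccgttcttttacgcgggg
Ndufaf4: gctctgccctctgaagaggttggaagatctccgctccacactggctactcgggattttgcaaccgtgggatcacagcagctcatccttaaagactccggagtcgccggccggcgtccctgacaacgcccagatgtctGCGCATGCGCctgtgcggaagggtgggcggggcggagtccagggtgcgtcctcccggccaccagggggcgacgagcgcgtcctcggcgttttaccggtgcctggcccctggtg
Uqcrfs1: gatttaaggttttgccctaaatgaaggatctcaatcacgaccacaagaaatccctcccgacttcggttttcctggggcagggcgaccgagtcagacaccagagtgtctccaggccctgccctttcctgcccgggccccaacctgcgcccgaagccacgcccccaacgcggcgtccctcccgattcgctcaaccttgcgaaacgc
Ndufs8: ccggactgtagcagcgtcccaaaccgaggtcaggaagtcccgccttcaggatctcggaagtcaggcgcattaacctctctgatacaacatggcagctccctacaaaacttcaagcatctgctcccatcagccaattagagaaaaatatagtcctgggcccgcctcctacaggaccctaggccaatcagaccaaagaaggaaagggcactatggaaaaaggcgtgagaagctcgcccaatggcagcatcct

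In complex I, Ndufs1 encodes the large iron-sulfur subunit that takes electrons from the flavin site. Its level was 106 and 111 CPM in emVE and 182 and 190 CPM in exVE. Ndufs8, another iron-sulfur core subunit, stood at 49 and 50 CPM in emVE and at 98.0 and 92.7 CPM in exVE. For each gene both exVE libraries lay above both emVE libraries. The log2 difference was 0.78 (SE 0.11, adjusted p 0.000146) for Ndufs1 and 0.95 (SE 0.16, adjusted p 0.000592) for Ndufs8. Ndufv1, which binds the NADH-oxidizing flavin, was higher by 0.59 (SE 0.17, adjusted p 0.0148), and this call was lost in 2 of the 4 fits with 1 library left out, with adjusted p up to 0.129 (without emVE replicate 1). Ndufv1 was no longer called on library totals alone, where its adjusted p was 0.308.

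All 4 subunits of succinate dehydrogenase were higher in exVE. Sdhd, a membrane anchor of the enzyme, had the smallest adjusted p of the 94 genes. It measured 157 and 155 CPM in emVE and 315 and 307 CPM in exVE, so the groups were far apart relative to the spread within them. The log2 difference was 1.00 (SE 0.10, adjusted p 1.63e-05). Sdhd was at 158 and 156 CPM in bulk gut tube, close to emVE. The flavoprotein Sdha differed by 0.48 (SE 0.08), the iron-sulfur subunit Sdhb by 0.55 (SE 0.11) and the anchor Sdhc by 0.59 (SE 0.10), with adjusted p of 0.000679, 0.00179 and 0.000726. On library totals alone Sdhd kept its call, and Sdha, Sdhb and Sdhc did not (adjusted p 0.38, 0.189 and 0.103).

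In complex III, the core protein Uqcrc2 rose from 189 and 196 CPM in emVE to 317 and 320 CPM in exVE. Its partner Uqcrc1 stood at 167 and 195 CPM in emVE and at 327 and 318 CPM in exVE. Neither gene overlapped between the groups, with log2 differences of 0.73 (SE 0.09, adjusted p 9.69e-05) and 0.84 (SE 0.18, adjusted p 0.0029). Uqcrq, a small subunit next to cytochrome b, had the largest difference of the genes called higher, 1.12 (SE 0.25, adjusted p 0.00301). Uqcrfs1 encodes the Rieske iron-sulfur protein and was higher by 0.58 (SE 0.10, adjusted p 0.000726), a call that library totals alone did not give (adjusted p 0.114). Uqcrb was the complex III gene that was not called.

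Atp5a1 and Atp5b form the catalytic head of ATP synthase and were the most abundant genes of the set in CPM. Atp5a1 measured 1010 and 1040 CPM in emVE and 1670 CPM in each exVE library. Atp5b measured 1200 and 1290 CPM in emVE and 1990 and 1970 CPM in exVE. Both were thus higher in both exVE libraries, by 0.70 (SE 0.10, adjusted p 0.000134) and 0.67 (SE 0.09, adjusted p 0.000148). Atp5f1, a stator subunit, differed by 0.76 (SE 0.09, adjusted p 3.63e-05), although its coding sequence has 1 near-identical copy. The c subunit has 3 genes for 1 mature protein, of which 2 were called. Atp5g3 was higher by 0.81 (SE 0.16, adjusted p 0.0016) and Atp5g1 by 0.85 (SE 0.21, adjusted p 0.00568, or 0.0679 on library totals alone). Atp5g2 stood at 47.0 and 42.8 CPM in emVE and at 49.1 and 43.6 CPM in exVE, a difference of 0.05 (SE 0.11, adjusted p 0.772). Its share of the 3 genes, per length, was 14.6% and 12.6% in emVE and 8.81% and 8.09% in exVE. Atp5g1 and Atp5g2 each have near-identical copies, so this share is uncertain, and the difference between the 3 genes was not tested.

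**Figure D2:**
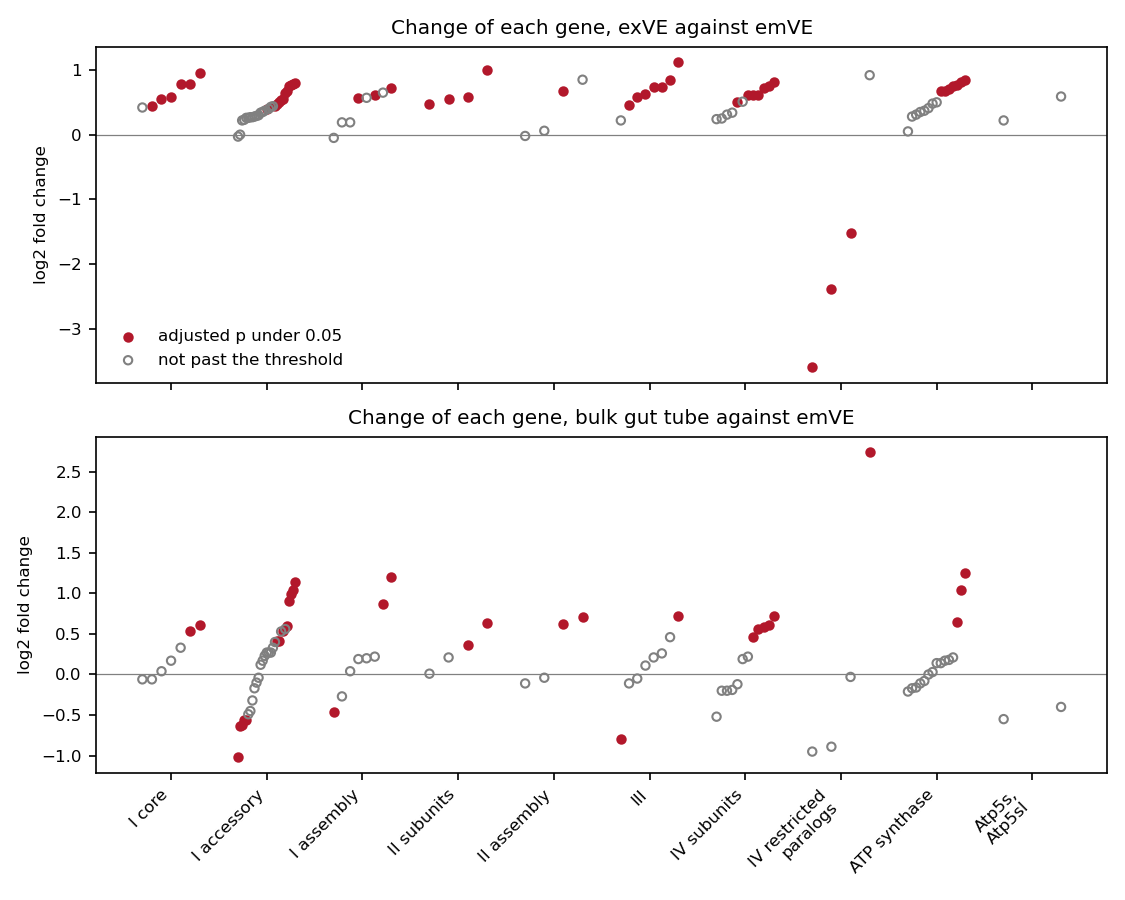
Log2 fold change of each gene by class, for exVE against emVE (top) and bulk gut tube against emVE (bottom), with genes sorted within a class. Filled points passed an adjusted p under 0.05 and open points did not, and Cox6a2, at 0 counts in emVE, is not drawn. In the top panel the filled points of every class but the restricted paralogs lie above 0, and in the bottom panel called genes lie on both sides.

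Among 5 restricted paralogs of complex IV, none was called higher in exVE and 3 were called lower, against 20.1% and 23.8% of all genes tested. Of the paralogs not called, Cox6a2 had 0 counts in every exVE and emVE library. Cox7a1 lay in the other direction, at 2.63 and 2.08 log2 CPM in exVE and 1.37 and 1.56 in emVE. Cox4i2 is the form of subunit IV known from lung and from cells at low oxygen, and its partner Cox4i1 is the general form. Cox4i2 had 72 and 80 counts in emVE (1.23 and 1.22 CPM) and 7 and 3 counts in exVE (0.141 and 0.0584 CPM), a log2 difference of -3.60 (SE 0.44, adjusted p 5.99e-05). Ndufa4l2 is a paralog of Ndufa4 that is induced by hypoxia. It had 1.90 and 2.41 CPM in emVE and 0.605 and 0.214 CPM in exVE (log2 difference -2.39, SE 0.52, adjusted p 0.00296). Both paralogs were thus lower in both exVE libraries, and both calls held with each library left out. Cox6b2, known as the testis form of subunit VIb, was lower by 1.52 on the log2 scale (SE 0.37, adjusted p 0.00558), a call lost without exVE replicate 2 (adjusted p 0.0565). Among the general partners, Cox4i1 was higher by 0.62 (SE 0.17, adjusted p 0.0112), Cox6a1 by 0.82 (SE 0.20, adjusted p 0.00656) and Cox6b1 by 0.62 (SE 0.19, adjusted p 0.0183). None of these calls held with each library left out, with adjusted p up to 0.0778, 0.0559 and 0.104 (each without emVE replicate 1), or on library totals alone (0.236, 0.0826 and 0.281). Cox7a2, the partner of Cox7a1, was higher by 0.51 (SE 0.17, adjusted p 0.0276), a call lost with each of the 4 libraries left out and on library totals alone, and Ndufa4 was not called (0.34, SE 0.15, adjusted p 0.0763). Of 18 hypoxia response genes, 6 were higher and 5 lower in exVE (median 0.22), against 20.1% higher and 23.8% lower of all genes tested. The stress-induced genes Ddit4 and Ndrg1 had log2 differences of -3.76 (SE 0.31, adjusted p 4.42e-06) and -3.40 (SE 0.38, adjusted p 3.34e-05), and P4ha1, a collagen prolyl hydroxylase, was higher by 0.84 (SE 0.16, adjusted p 0.00107). As a share of the pair per length, Cox4i2 made up 0.794% and 0.728% in emVE and 0.058% and 0.0234% in exVE.

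Other mitochondrial gene lists were also counted between exVE and emVE, where 20.1% of all genes tested were higher and 23.8% lower. Of 18 genes of the tricarboxylic acid cycle and pyruvate dehydrogenase, 15 were higher and none lower (median 0.77), with citrate synthase Cs higher by 1.16 (SE 0.12, adjusted p 1.82e-05). Of 18 fatty acid oxidation genes, 13 were higher and 1 lower (median 0.79). Mitochondrial protein import had 16 of 22 higher (median 0.72), mitochondrial ribosomal proteins 52 of 77 (median 0.50), and assembly factors outside the naming rule 24 of 35 (median 0.52), with none lower on these 3 lists. Tmem70, needed to build ATP synthase, was higher by 1.02 (SE 0.11, adjusted p 3.26e-05). Of 15 genes for cytochrome c and coenzyme Q, 10 were higher and 1 lower. Cytosolic ribosomal proteins, in contrast, had 5 of 86 higher and 1 lower (median 0.14). Among 24 regulators of mitochondrial biogenesis 6 were higher and 1 lower (median 0.12), a share higher that is near that of all genes. They included the nuclear receptor Esrra (1.43, SE 0.22, adjusted p 0.000346) and the coactivator Ppargc1b (1.73, SE 0.37, adjusted p 0.00259). Glycolysis and lactate genes were split, with 6 higher and 5 lower of 21.

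The mitochondrially encoded part of the chain could be read only for 7 of its 13 genes. The other 6, mt-Atp6, mt-Atp8, mt-Co2, mt-Co3, mt-Nd3 and mt-Nd4l, did not exceed 1.39 CPM in any library, whereas the 7 had at least 639 CPM in each. Of the 7, 4 were higher in exVE than in emVE and none lower, against 20.1% and 23.8% of all genes tested. Their median log2 difference was 0.60. All 7 were lower in bulk gut tube than in emVE, against 16.9% of all genes, with a median of -1.52. mt-Nd1, a membrane core subunit of complex I, measured 9390 and 9070 CPM in emVE, 16800 and 15800 CPM in exVE and 2470 and 3950 CPM in bulk. Of these 3 groups it was highest in exVE and lowest in bulk, with a log2 difference of -1.53 (SE 0.21, adjusted p 0.000217) for bulk against emVE. Mitochondrially encoded counts were 4.77% to 6.65% of the total at E7.5 and 0.959% to 2.63% in gut tube libraries. Their ratio to the counts of the 94 nuclear genes ran from 4.85 to 5.72 at E7.5 and from 0.597 to 2.30 in the gut tube.

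**Figure D3:**
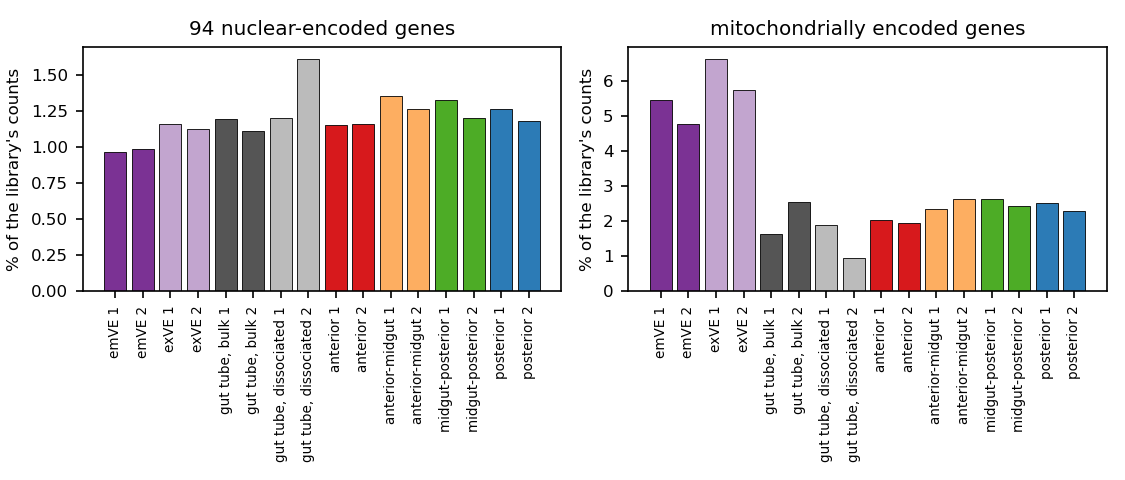
Share of each library's counts in the 94 nuclear genes (left) and in mitochondrially encoded genes (right), in percent, as bars by library. The nuclear share varies between 0.963% and 1.61%, while all 4 E7.5 libraries have 4.77% or more mitochondrially encoded counts and no gut tube library exceeds 2.63%.

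Bulk gut tube at E8.75 was set against emVE at E7.5, groups that differ in stage, in tissue and in whether cells were released from tissue. In bulk, 26 of the 94 genes were higher and 7 were lower, against 21.7% and 16.9% of all genes tested. As percentages the set had 27.7% higher and 7.45% lower, and its median log2 difference was 0.17, compared with 0.08 over all genes. On library totals alone these medians were 0.28 and 0.19, so the set stood 0.09 above all genes on both scales. The split was 24 higher and 11 lower with RLE size factors and 27 and 12 with DESeq2, where 38.3% and 42.8% of all genes were called. It was 37 and 14 in the fit without the dissociated group, in which 47.7% of all genes were called. Leaving out any 1 of the bulk or emVE libraries lowered the count called from 33, and lowered the share of all genes called. The median of the set was then 0.13 (bulk replicate 1), 0.20 (bulk replicate 2), 0.15 (emVE replicate 1) and 0.18 (emVE replicate 2). In the main fit, genes with transcripts of 759 bases or less had a median of 0.22 in the set and 0.25 over all genes with a known length. Longer genes had medians of 0.12 and 0.07. The part of transcript length in the difference between bulk and emVE was not tested. The emVE comparisons share the emVE libraries, so the values of exVE and bulk against emVE are not independent.

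Within 1 complex, some subunits were called between bulk and emVE and others were not. Atp5e, the epsilon subunit of the ATP synthase stalk, measured 50.8 and 43.5 CPM in emVE and 118 and 107 CPM in bulk. Atp5j2, the f subunit of its membrane part, measured 79.9 and 86.4 CPM in emVE and 172 and 169 CPM in bulk. Both were higher in both bulk libraries, by 1.25 (SE 0.26, adjusted p 0.00282) and 1.04 (SE 0.21, adjusted p 0.00285). Atp5a1 and Atp5b of the same enzyme were not called, with differences of -0.08 (SE 0.10, adjusted p 0.536) and 0.21 (SE 0.09, adjusted p 0.0887). In exVE against emVE the head subunits were called, and Atp5e (0.28, SE 0.26, adjusted p 0.395) and Atp5j2 (0.31, SE 0.21, adjusted p 0.268) were not. Whether the subunits differ from each other was not tested.

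Of the 29 accessory subunits of complex I, 8 were higher in bulk and 5 lower, shares close to those of all genes. Ndufc1 and Ndufc2 sit in the membrane arm. Ndufc2 measured 36.0 and 40.0 CPM in emVE and 68.5 and 73.4 CPM in bulk (log2 difference 0.90, SE 0.14, adjusted p 0.00056), and Ndufc1 differed by 1.14 (SE 0.23, adjusted p 0.00233). Ndufb8, another membrane arm subunit, differed by 1.04 (SE 0.17, adjusted p 0.000701). In the other direction, Ndufa1 had 40.4 and 47.2 CPM in emVE and 27.8 and 28.9 CPM in bulk, lower by 0.63 (SE 0.14, adjusted p 0.00499). Ndufb4 was lower by 1.02 (SE 0.24, adjusted p 0.00592) and Ndufa12 by 0.56 (SE 0.17, adjusted p 0.0187). Ndufb4 and Ndufa12 each have a near-identical copy. The calls of Ndufa1, Ndufb4 and Ndufa12 were each lost with at least 1 library left out, at adjusted p up to 0.054 (without emVE replicate 2), 0.057 (without bulk replicate 2) and 0.0966 (without bulk replicate 2).

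Of the 4 complex II subunits 2 were higher in bulk, and of the 8 complex III genes 1 was higher and 1 lower. All genes tested had 21.7% higher and 16.9% lower, and these shares were not tested against each other. Sdhaf3 and Sdhaf4, of 4 assembly factors of complex II, were also called higher. Sdhaf3 lost its call with RLE size factors, with no filter on low counts and with only the groups compared, and Sdhaf4 with no filter. Neither call held with each library left out. The log2 difference was 0.40 for Sdhaf3 without emVE replicate 1 and 0.47 for Sdhaf4 without emVE replicate 2. The Rieske protein Uqcrfs1 measured 70.1 and 68.0 CPM in emVE and 115 and 112 CPM in bulk (log2 difference 0.72, SE 0.10, adjusted p 0.00027). Sdhc measured 68.8 and 65.6 CPM in emVE and 108 and 103 CPM in bulk (0.64, SE 0.10, adjusted p 0.000574). Both thus rose clear of the emVE range, and Sdhb was higher by 0.36 (SE 0.11, adjusted p 0.0223), a call lost with 3 of the 4 libraries left out in turn, at adjusted p up to 0.147 (without emVE replicate 1), 0.10 (without bulk replicate 1) and 0.0648 (without bulk replicate 2). Uqcrb, a small subunit of complex III with 3 near-identical copies, fell from 130 and 134 CPM in emVE to 76.2 and 76.9 CPM in bulk (-0.79, SE 0.13, adjusted p 0.000639). Cox4i2 rose from 1.23 and 1.22 CPM to 9.49 and 6.92 CPM, a log2 difference of 2.74 (SE 0.33, adjusted p 0.000106), the largest among called genes. Several marker lists moved with it. All 12 endothelial markers were higher in bulk, with sums of 620 and 575 CPM in bulk and 35.7 and 53.3 CPM in emVE (Emcn at 0 counts in emVE). Blood markers had 10 of 11 tested higher and 1 lower, with sums of 463 and 782 CPM against 12.2 and 11.8 CPM. Heart and muscle markers had 10 of 18 higher and none lower, and mesoderm markers 8 of 16 higher and 1 lower. In exVE against emVE, where Cox4i2 was lower, 6 of the 12 endothelial markers were higher and none lower. The part of these cell types in the Cox4i2 difference was not tested.

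Dissociated cells and bulk gut tube did not differ in any of the 94 genes at an adjusted p under 0.05, and 0% of all genes tested were higher and 0% lower. At an unadjusted p under 0.05 there were 58 of the 94 and 2809 of 17313 genes, and DESeq2 called 3 of the 94, against 1.71% of all genes. Markers of dissociation stress were apart in both libraries, with sums of 1600 and 1890 CPM in dissociated cells and 227 and 398 CPM in bulk, although none of the 14 passed the test (median 1.95). The section libraries, not labelled as dissociated, had sums of 613 to 1250 CPM for the same markers, also above bulk. The part of these stress markers in the values of the 94 genes was not tested. The median log2 difference of the 94 genes was 0.42. It rested on dissociated replicate 2. The median level of the 94 genes was 6.34 log2 CPM in dissociated replicate 1, next to 6.31 and 6.19 in bulk, and 7.05 in dissociated replicate 2. With dissociated replicate 2 alone against bulk, 66 of the 94 were called higher, compared with 12.1% of all genes, and the median was 0.69. With dissociated replicate 1 alone none was called and the median was 0.10. Cox4i1 shows the pattern, at 302 and 465 CPM in the 2 dissociated libraries and 256 and 249 CPM in bulk, whereas Sdhd was at 167 and 160 CPM against 158 and 156 CPM.

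The shift of dissociated replicate 2 was larger in genes with short transcripts. The 47 genes of the set with transcripts of 759 bases or less had a median log2 difference of 0.70 from replicate 1, and the 47 longer ones 0.54. Over all genes with a known length the medians were 0.53 for 657 short and -0.01 for 15598 longer genes. Spearman's rho with length was -0.42 across the 94 genes and -0.36 across all 16255 genes, which share the same 2 libraries and are not independent replicates. In the other 7 pairs, taken as replicate 2 minus replicate 1, rho ran from 0.03 (emVE) to 0.37 (exVE) across the 94 genes, with 0.32 in midgut-posterior and in posterior, and from -0.09 to 0.26 across all genes. Mitochondrially encoded counts were lower in the same library, at 0.959% against 1.88% in dissociated replicate 1. Heart and muscle markers summed to 2530 CPM in it and 283 CPM in its partner, and visceral endoderm markers to 4800 and 1420 CPM. The part of transcript length and of these cell types in the shift was not tested.

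Along the gut tube, few of the 94 genes differed. The test for any difference among the 4 sections called 4 of them (4.26%), against 12.9% of all genes. It called 14 in the fit without the dissociated group and DESeq2 called 16, against 18.5% and 27.2% of all genes in those fits. The count was 2 without anterior replicate 1, anterior replicate 2, midgut-posterior replicate 1 or posterior replicate 1. On the scale of group means, however, the anterior section held the lowest of the 4 values for 75 of the 94 genes (79.8%), compared with 31.0% of all genes tested. The median level was 6.28 and 6.37 log2 CPM in the anterior libraries. It was 6.68 and 6.47 in anterior-midgut, 6.7 and 6.5 in midgut-posterior, and 6.64 and 6.42 in posterior libraries, so both anterior libraries lay below the other 6, though the closest values (6.37 and 6.42) were nearer to each other than replicates of a section were. Short genes of the set differed more between the anterior-midgut and the anterior section than longer ones, with medians of 0.24 and 0.19, and 0.15 against 0.00 over all genes. The part of transcript length in this was not tested.

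Between pairs of sections the calls were sparse. The ends of the tube, posterior against anterior, gave 3 genes higher and none lower of 94, against 4.03% and 3.89% of all genes. That count was 0 without anterior replicate 1 or posterior replicate 1 and 1 without anterior replicate 2. Anterior-midgut against anterior gave 2 higher and none lower, against 3.42% and 2.17%, with 11 higher in the fit without the dissociated group (8.57% of all genes were called there in either direction) and none with the replicate number as a block, without anterior replicate 1 or without anterior-midgut replicate 1, and 1 without anterior replicate 2. Midgut-posterior against anterior-midgut gave none by edgeR, against 0.173% and 0.323% of all genes. There, 1 of the 94 genes and 1241 of all genes tested had an unadjusted p under 0.05, and DESeq2 called 1, against 2.52% of all genes. Posterior against midgut-posterior gave 2 higher and none lower, against 1.13% and 1.14%, a count that was 0 without midgut-posterior replicate 1, midgut-posterior replicate 2 or posterior replicate 1 and 1 without posterior replicate 2. The shares of the set called higher, 3.19%, 2.13%, 0% and 2.13% in this order, were close to those of all genes.

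Cox4i2 (chromosome 2, 152754173 to 152765037 on GRCm38) had the clearest regional pattern. Its level was 7.14 and 7.92 CPM in anterior libraries, 4.35 and 4.69 CPM in anterior-midgut libraries, 5.61 and 6.89 CPM in midgut-posterior libraries and 21.3 and 18.4 CPM in posterior libraries. Both posterior libraries were above every other library of the series. The adjusted p for any difference among sections was 0.00235, and it stayed past the threshold with each library left out. Posterior exceeded anterior by 1.40 (SE 0.31, adjusted p 0.0166) and midgut-posterior by 1.67 (SE 0.31, adjusted p 0.0178). These pairwise calls were lost with 3 of 4 libraries left out in turn, at adjusted p up to 0.131 (without anterior replicate 1) and 0.183 (without midgut-posterior replicate 1). The order of group means was posterior, dissociated, bulk, anterior, midgut-posterior, anterior-midgut, emVE and exVE, of which dissociated (6.90 and 12.9 CPM), bulk and anterior overlapped. Per length, Cox4i2 was 6.69% and 6.08% of the Cox4i1 and Cox4i2 pair in the posterior section and 0.0234% to 3.68% in the other libraries. Endothelial markers summed to 712 and 1140 CPM in posterior, 918 and 861 CPM in midgut-posterior and 659 and 588 CPM in anterior libraries. Notochord and node markers summed to 762 and 371 CPM in posterior and to between 68.6 and 179 CPM in the other sections, and extraembryonic ectoderm and trophoblast markers to 442 and 393 CPM against 28 to 306 CPM. These lists share genes with others: Shh (notochord and node) and Cdx2 (extraembryonic) are also listed as gut endoderm markers, and Hand1 (extraembryonic) as a mesoderm marker. The sums are therefore not particular to 1 cell type. Whether such cells have a part in the posterior levels of Cox4i2 and of Ndufaf4 was not tested.

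**Figure D4:**
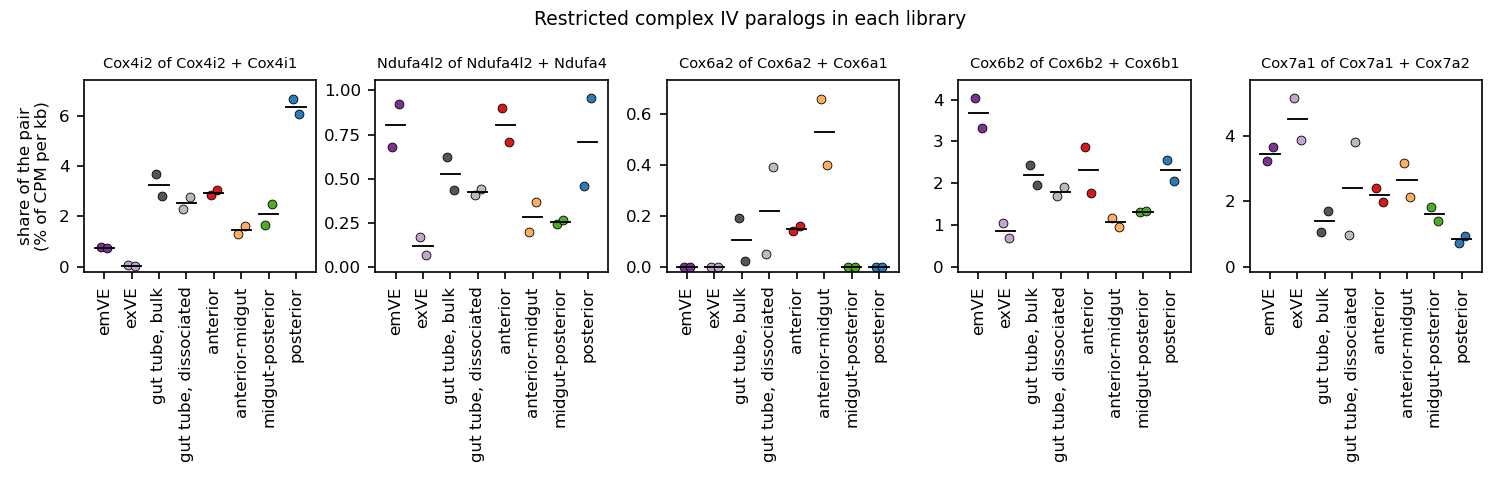
Share of each restricted complex IV paralog in the pair with its general partner, computed from CPM per kb, as 1 point per library with a line at the group mean. Cox4i2 is highest in the posterior section and lowest in exVE, and Cox6a2 is present in the anterior and anterior-midgut sections and in whole gut tubes and is at 0 in emVE, exVE, midgut-posterior and posterior libraries.

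Cox6a2, the heart and skeletal muscle form of subunit VIa, was found in the anterior part of the tube. It had 20 and 19 counts in the anterior section (0.221 and 0.240 CPM) and 100 and 51 counts in the anterior-midgut section (1.30 and 0.662 CPM), and 0 counts in both midgut-posterior and both posterior libraries. Taking 3 counts, summed over both libraries, as the most that 0 counts allow, the anterior-midgut level was at least 47-fold higher than midgut-posterior and the anterior level at least 12.4-fold higher than posterior. Cox6a2 passed the count filters only through groups where it is high, so its call among the 4 sections is not independent of that choice and is given only within the count above. That call was lost with any section library left out and with the replicate number as a block. Heart and striated muscle markers moved with Cox6a2. Their sum was 835 and 1360 CPM in anterior, 2270 and 1850 CPM in anterior-midgut, 96.6 and 94.6 CPM in midgut-posterior and 63.9 and 42.8 CPM in posterior libraries, and no marker of the 18 was at 0 in both libraries of a section. In whole gut tubes Cox6a2 had 20 and 2 counts in bulk and 7 and 88 counts in dissociated cells, where the marker sums were 524, 189, 283 and 2530 CPM in the same order. The part of muscle cells in the Cox6a2 difference was not tested.

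Ndufaf4, an assembly factor of complex I, was higher in the posterior section. It measured 82.8 and 79.5 CPM there, 56.5 and 59.8 CPM in midgut-posterior, 51.4 and 54.7 CPM in anterior-midgut and 51.1 and 59.5 CPM in anterior libraries. The posterior libraries again lay above all others of the series, where the highest was 63.1 CPM in exVE. The adjusted p among sections was 0.00751, or 0.0802 without posterior replicate 1. Posterior exceeded anterior by 0.55 (SE 0.11, adjusted p 0.00978) and midgut-posterior by 0.48 (SE 0.11, adjusted p 0.0459). The first call was lost without anterior replicate 1 (0.12) or posterior replicate 1 (0.0738), and the second with each of the 4 libraries left out (up to 0.335, without posterior replicate 1).

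Ndufs8, the complex I subunit also raised in exVE, was low in the anterior section. It measured 36.1 and 36.8 CPM there, 61.9 and 50.6 CPM in anterior-midgut, 68.4 and 58.2 CPM in midgut-posterior and 59.0 and 55.2 CPM in posterior libraries. The anterior libraries were the lowest 2 of the series. The adjusted p among sections was 0.0229, and posterior and anterior-midgut exceeded anterior by 0.65 and 0.63 (SE 0.16 each, adjusted p 0.0278 and 0.0419). The call among sections was lost without anterior replicate 1 (0.174), anterior replicate 2 (0.143) or midgut-posterior replicate 1 (0.0615), and the pairwise calls were lost with 4 of 4 and 3 of 4 libraries left out, at adjusted p up to 0.159 (without anterior replicate 1) and 0.397 (without anterior-midgut replicate 1). Sdhd was at 154 and 167 CPM in anterior and 228 and 193 CPM in anterior-midgut libraries, higher by 0.39 (SE 0.10, adjusted p 0.0402). That call was lost with 3 of 4 libraries left out (up to 0.435, without anterior-midgut replicate 1) and on library totals alone (0.0725).

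**Figure D5:**
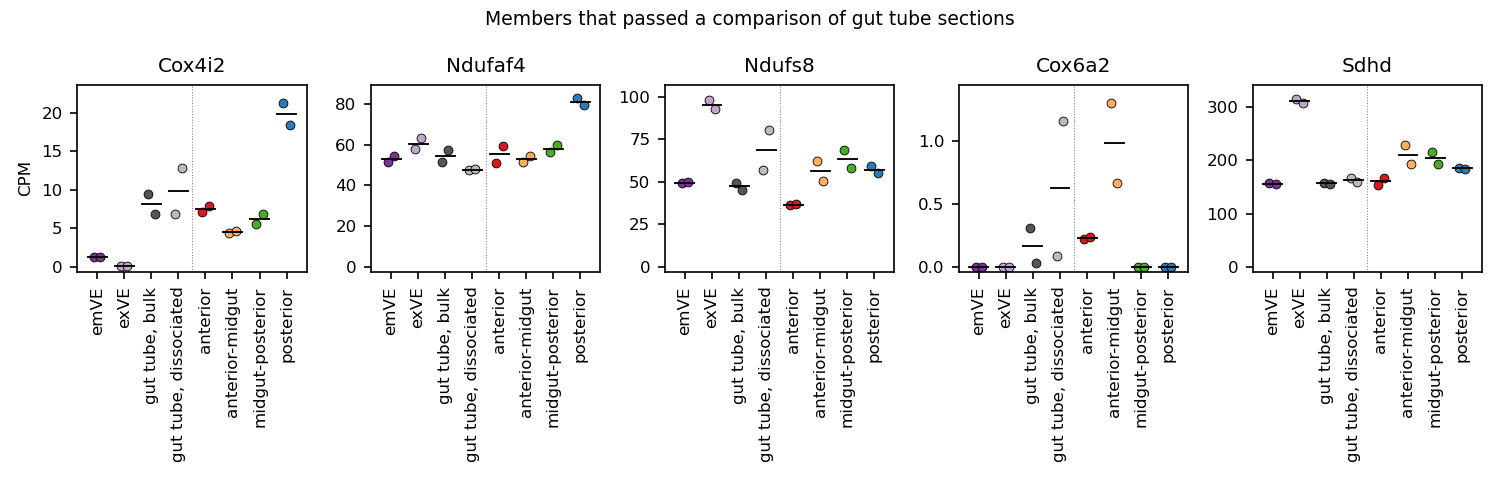
CPM of Cox4i2, Ndufaf4, Ndufs8, Cox6a2 and Sdhd in each library, as 1 point per library with a line at the group mean, with the 4 sections to the right of the dotted line. Cox4i2 and Ndufaf4 stand out in the posterior section, Ndufs8 is lowest in the anterior section, Cox6a2 is at 0 in the 2 posterior sections, and Sdhd is highest in exVE.

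Visceral endoderm markers rose along with these genes between the anterior and anterior-midgut sections. Of 20, 14 were higher and none lower, against 3.42% and 2.17% of all genes tested. Their sums were 480 and 541 CPM in anterior, 8930 and 3370 CPM in anterior-midgut, 6750 and 4460 CPM in midgut-posterior and 370 and 1760 CPM in posterior libraries, with Apoc2 at 0 counts in the anterior section. The comparisons of exVE with emVE and of anterior-midgut with anterior share no library. Of the 94 genes, 86 were above 0 in the first and 88 in the second. The values were above 0 in both for 84 genes and below 0 in both for 4, counts that those 2 totals nearly fix. Spearman's rho between the 2 comparisons was 0.29 across the 94 genes and 0.29 across all genes tested. The part of visceral endoderm cells in the section differences was not tested. Of the other mitochondrial lists, biogenesis regulators had 3 of 24 lower in the posterior than in the anterior section (Esrrg, Ppargc1a and Ppargc1b), against 3.89% of all genes. The remaining lists had at most 1 gene called in any pair of neighbouring sections.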

How the data were processed

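The authors deposited raw counts per gene symbol, as whole numbers whose totals differ between libraries. STAR was used per the submitters' processing notes; the sources used here give no version, genome build, annotation or counter. Each file had 26795 entries, and 32 symbols listed more than once were summed. From these counts, genes were kept with filterByExpr (minimum count 10, minimum total 15), which left 17313, and compared in 1 edgeR 4.0.16 quasi-likelihood fit (R 4.3.3) of all 16 libraries with TMM factors, a coefficient per group and 8 residual degrees of freedom. P-values are two-sided and adjusted over all genes tested, with a threshold of 0.05. An SE is the log2 difference divided by the root of its F. Log2 CPM used a prior count of 2. Lengths and coordinates are from GENCODE M21 (GRCm38): the median length of a gene's basic coding transcripts, joined by symbol. Near-identical copies were searched with blastn 2.17.0. The fit was tested on simulated data. Floors cover counting error only. The genes, the other lists and the rule for naming were chosen with earlier results of these data known. The rule names, per comparison, the 4 genes with the smallest adjusted p in each direction, the restricted paralogs with their partners, the catalytic subunits, the extremes of level, and up to 3 genes of another list; Uqcrq, Atp5e, Atp5j2, Ndufc1 and Ndufb8 were added after their values were seen. Alternatives were RLE factors, library totals, no filter, a replicate block, only the compared groups, DESeq2 1.42.0 and each library left out. Where a group was down to 1 library, its spread was taken to be that of the other groups. The fit without the dissociated group was chosen after seeing the data.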

Additional observations from a re-analysis of the deposited data

Results flagged for a closer look

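Cox7b2, a testis-linked paralog of the complex IV subunit Cox7b, missed the count minimum of the set and entered no comparison. It was above the limit that a count of 0 allows (3 counts) in 8 of the 16 libraries. It had 4 counts in dissociated replicate 2, 4 and 6 in the bulk replicates, 4 in anterior replicate 1, 7 in anterior-midgut replicate 1, 10 in midgut-posterior replicate 1, 8 in posterior replicate 2 and 6 in exVE replicate 2. Groups of 2 libraries were not tested for outlying samples.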

How the results depend on the processing

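With 2 libraries per group, calls moved with single libraries: of 64 calls of named genes, 32 held with each library left out in turn. None reversed under any alternative run, and both DESeq2 and the fit without the dissociated group, which was chosen after seeing the data, kept all 64. Library totals only lost 18, and no filter on low counts lost 8. The cause of these changes was not tested. For exVE against emVE, library totals only gave 19 genes called, against 41.7% of all genes, and a median of 0.12. That median was 0.42 with no filter and with only the groups compared, and 0.45 to 0.52 with a library left out, when 29 to 35 genes were called. For bulk against emVE, 51 genes were called without the dissociated group and 17 to 21 with a library left out, and the median was 0.28 on library totals only. For dissociated against bulk, DESeq2 called 3 and leaving out a library gave 0 to 66.

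For posterior against anterior, 5 genes were called without the dissociated group and 6 by DESeq2, against 11.7% and 13.2% of all genes. The median was 0.09 to 0.17 with a library left out. For anterior-midgut against anterior the counts were 1 on library totals only and 1 with only the groups compared, against 5.56% and 8.3% of all genes. They were 11 without the dissociated group and 4 by DESeq2, against 8.57% and 9.99%. The median was 0.16 to 0.27 with a library left out. For midgut-posterior against anterior-midgut, only the groups compared gave 1 and DESeq2 gave 1, against 1.58% and 2.52% of all genes. For posterior against midgut-posterior, no filter gave 1 and only the groups compared gave 0, against 2.61% and 0.107% of all genes. The median was -0.14 to 0.02 with a library left out. Among the 4 sections, 14 were called without the dissociated group and 16 by DESeq2, against 18.5% and 27.2% of all genes.

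The labels do not explain the replicate numbers. Same-numbered libraries had deviations from their group means that correlated by -0.108 to 0.216, with 1 value per comparison, so the numbers were not used as pairs. With the replicate number as a block, 47 genes were called for exVE against emVE, against 42.4% of all genes. For bulk against emVE 31 were called, against 36.9%. That fit gave 0 for anterior-midgut against anterior (4.81% of all genes) and 3 among the 4 sections (11.4%). It lost 6 of the 64 named calls. Depth limits only the restricted paralogs, of which Cox6a2 had at most 100 counts in a library.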
